A study of Mus musculus with 9 samples.

Results

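The genes described here encode the desmosome: the cadherins Dsc2, Dsc3, Dsg2 and Dsg3, the plaque proteins Dsp, Jup, Pkp1, Pkp2 and Pkp3, and the desmosomal membrane protein Perp. They are 10 of the 36153 genes that the arrays measured on transcript clusters carrying a single gene symbol. They were chosen by symbol among known genes of the junction, with earlier results of these data known. The set is not complete, and 6 other desmosomal cadherins and plakophilins are described apart. Each of the 10 had 1 transcript cluster, so no choice between clusters arose. RNA was measured on whole-transcript mouse arrays in 3 groups of 3 samples. The first group was purchased mouse embryonic stem cells (mESC), pluripotent cells grown in culture, with no line or strain named in the labels. The other groups were living green-fluorescent cells sorted from Sox2-GFP+ mice, in which the fluorescent protein marks cells that use the stem cell factor Sox2. One came from the incisor epithelium at E14.5 (embryo) and the other from the adult incisor at postnatal day 30 (adult), where the sorted tissue was the labial cervical loop, a stem cell niche at the growing end of the tooth. Cells of more than 1 animal were pooled in each dental sample. The sample titles call the mESC samples biological replicates, but the labels do not say whether they were separate cultures. Any p-value thus covers only the variation among the 3 samples, possibly technical.

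Desmosomes are spot-like junctions that tie the keratin filaments of neighbouring epithelial cells together. Desmogleins and desmocollins, the desmosomal cadherins, bind across the gap between cells. Plakoglobin (Jup) and the plakophilins hold their tails on the inner face of the membrane, and desmoplakin (Dsp) links that plaque to keratin. In stratified epithelium the cadherins and plakophilins are used in different layers, and in enamel epithelium the junctions hold together a tissue that folds, proliferates and moves toward the enamel-forming surface.

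Of the members, RefSeq promoter sequence of mouse assembly GRCm38.p6 was at hand for Dsp and Jup, and both are shown because they encode the shared core of the plaque and had unlike profiles in these samples. Each line holds the 250 bases before the annotated start, written 5′ to 3′ on the gene's own strand, from chr13:38151044-38151293 (plus strand) for Dsp and chr11:100397791-100398040 (minus strand) for Jup. Capitals mark matches on either strand to GGGCGG, the core of the Sp1 motif, and to the half-site of the p53 family.
Dsp: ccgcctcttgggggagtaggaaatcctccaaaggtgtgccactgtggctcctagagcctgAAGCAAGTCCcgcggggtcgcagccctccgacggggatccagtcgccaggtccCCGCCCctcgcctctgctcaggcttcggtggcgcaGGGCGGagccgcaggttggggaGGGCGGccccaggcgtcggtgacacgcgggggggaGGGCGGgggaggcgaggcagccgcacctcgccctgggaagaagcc
Jup: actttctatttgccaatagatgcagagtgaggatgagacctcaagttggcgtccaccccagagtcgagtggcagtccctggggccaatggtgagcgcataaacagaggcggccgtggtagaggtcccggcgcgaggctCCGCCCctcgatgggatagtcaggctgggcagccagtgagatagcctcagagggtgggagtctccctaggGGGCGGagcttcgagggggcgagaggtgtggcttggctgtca
The Dsp window had a GC content of 72.4% and the Jup window 62.0%, against a median of 52.4% over 32851 promoter windows of the same length. Dsp held 4 GGGCGG matches, the farthest at -137 to -132 and the nearest at -45 to -40 from the start, and Jup held 2, at -112 to -107 and -42 to -37. At least 1 such match lay in 32.7% of all windows. Dsp also held 1 half-site of the p53 family, at -190 to -181, which 7.13% of windows held, and the matches did not overlap. Jup held none of these half-sites. The letters of the CAGGTG E-box (17.2% of windows), the Grhl motif AACNGGTT (1.79%), the AP-1 motif TGANTCA (6.75%) and TATAAA (12.4%), searched on both strands, were in neither window. Just past the window, Dsp held a CAGGTG match on the plus strand, at bases 4 to 9 counted from the start. The share of promoters with a match there was not counted.

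The values are log2 signals that the authors deposited, so a difference of 1 is a doubling. They give no comparison of level between genes. On the 5222 negative-control probe sets the median per array was 4.45 to 5.24, the 75th percentile 5.84 to 6.87 and the 95th percentile 8.35 to 9.63. A signal in the range of the medians has no reliable level, and one between there and the 95th percentile lies within the spread of the negative controls. No detection calls separate the genes there, and such signals are compared only between arrays of the same gene. The groups with every array above 9.63 were mESC for Pkp2, embryo and adult for Dsc3, Dsp and Perp. A gene was called where limma gave an adjusted p under 0.05 (Benjamini-Hochberg over 36559 clusters) and a log2 difference of at least 1. Arrays deviated from their group mean with an SD of 0.152 to 0.204 log2, apart from adult replicate 1 at 0.267. Markers fitted the labels: of 9 measured dental and oral epithelium markers, 7 were called higher in embryo than in mESC (5.01% of all clusters) and 7 in adult (7.01%), with 1 (Cdh1) called lower in embryo, and of 9 pluripotency markers 9 and 8 were called lower (6.11% and 10.3%). Krt14, a keratin of basal epithelial cells, averaged 6.35 in mESC, 15.41 in embryo and 15.06 in adult. The adult samples also carried RNA of other cell types, described with the embryo and adult comparison.

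**Figure D1:**
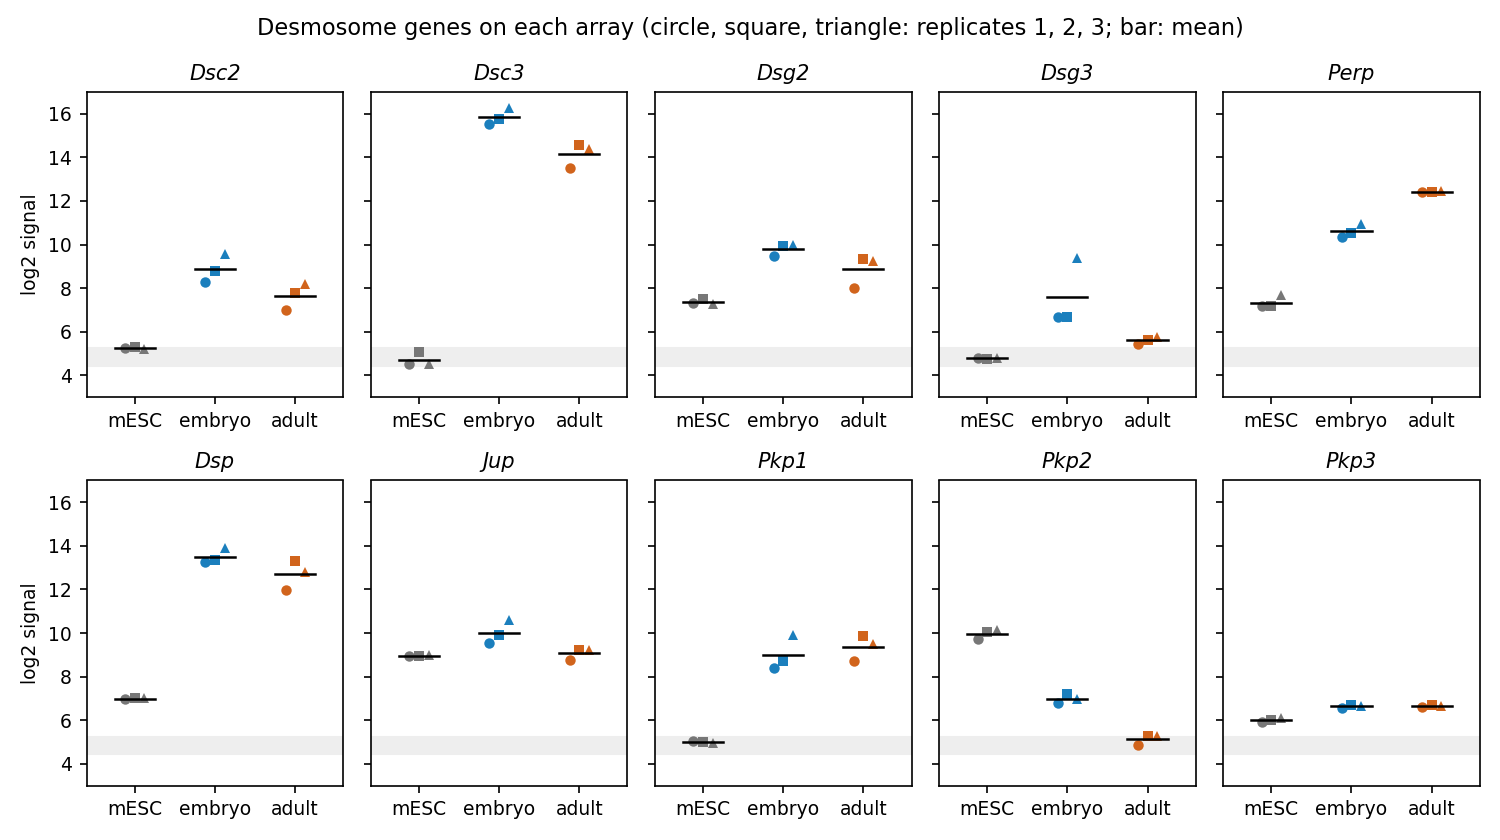
Log2 signal of the 10 desmosome genes in the 9 arrays, 1 panel per gene. Circles, squares and triangles are replicates 1, 2 and 3 of mESC, embryo and adult, bars are group means, and the grey band is the range of the arrays' negative-control medians (4.45 to 5.24). Pkp2 is the only panel with mESC above both dental groups, and the mESC points of Dsc3, Dsg3 and Pkp1 lie in the band.

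The first comparison asks how dental Sox2+ cells differ from pluripotent cells that also use Sox2. In the embryonic incisor 8 of the 10 genes were called higher than in mESC (5.01% of all clusters were called higher) and 1, Pkp2, lower (6.11%). The median difference of the 10 was 3.04 log2, against -0.07 over all clusters. In the adult cervical loop 6 were called higher (7.01% of clusters) and Pkp2 again lower (10.3%), with a median of 1.94 against -0.07. The arrays of the groups did not overlap for 10 of 10 genes in embryo (42.1% of clusters) and for 9 of 10 in adult (47.7%), the exception being Jup. Both comparisons use the same mESC arrays, so they are not independent of each other.

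Among the cadherins, Dsc3, the desmocollin of basal layers, had mESC signals of 4.52, 5.08 and 4.52, embryo signals of 15.55, 15.76 and 16.26, and adult signals of 13.53, 14.56 and 14.37. The mESC arrays were at the background level, and the dental arrays were far above it with embryo over adult. The difference from mESC was 11.15 ± 0.31 log2 (SE, n = 3 against 3) in embryo (limma adjusted p = 2.68e-07) and 9.45 ± 0.31 in adult (5.1e-07). Because the mESC signal was background, these differences are limited by it and may understate the change.

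Dsc2, a desmocollin found in nearly all tissues with desmosomes, had mESC signals of 5.26, 5.31 and 5.22, embryo signals of 8.29, 8.80 and 9.58, and adult signals of 6.99, 7.78 and 8.17. No dental array overlapped mESC, whose arrays lay at the top of the range of negative-control medians or just above it, which limits the differences. Dsc2 was higher by 3.63 ± 0.37 log2 in embryo (limma adjusted p = 0.000266) and by 2.38 ± 0.37 in adult (0.00149).

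Dsg2, the widespread desmoglein that simple epithelia use, had mESC signals of 7.30, 7.51 and 7.27, above the 75th percentile of the negative controls on those arrays and under the 95th. Its embryo arrays read 9.47, 9.94 and 9.97 and its adult arrays 8.01, 9.35 and 9.24, so both dental groups lay above mESC throughout, with adult replicate 1 nearest to it. The differences were 2.43 ± 0.34 log2 in embryo (limma adjusted p = 0.00127) and 1.51 ± 0.34 in adult (0.00921).

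Dsg3, a desmoglein of basal and oral epithelium and the target of antibodies in pemphigus vulgaris, had mESC signals of 4.78, 4.77 and 4.80, embryo signals of 6.69, 6.69 and 9.39, and adult signals of 5.45, 5.62 and 5.78. Embryo replicate 3 stood far above the other embryo arrays, while the mESC arrays were at background. Dsg3 was higher in embryo by 2.81 ± 0.65 log2 (limma adjusted p = 0.015), and by 1.91 without embryo replicate 3 (4.48e-05). In adult the difference of 0.83 ± 0.65 was not called (adjusted p = 0.372, 95% interval -0.68 to 2.35), although every adult array lay above every mESC array. The fit shares 1 spread over the groups, and the SD of Dsg3 was 1.56 in embryo, 0.17 in adult and 0.02 in mESC. When single arrays were left out, the adult difference was 0.75 to 0.92, under the minimum of 1, with limma adjusted p from 0.000451 to 0.526. The adult signals were within the spread of the negative controls.

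In the plaque, Dsp had mESC signals of 6.96, 7.0 and 7.02, embryo signals of 13.27, 13.37 and 13.90, and adult signals of 11.97, 13.31 and 12.79. The mESC arrays were close together and more than 4 log2 units under any dental array. Dsp was higher by 6.52 ± 0.32 log2 in embryo (limma adjusted p = 5.56e-06) and by 5.70 ± 0.32 in adult (7.19e-06), that is 91.8-fold and 51.9-fold.

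Jup, which serves both desmosomes and adherens junctions, behaved unlike Dsp. Its mESC signals were 8.94, 8.97 and 8.99, its embryo signals 9.55, 9.91 and 10.60, and its adult signals 8.78, 9.21 and 9.21. All embryo arrays were above mESC, and the adult arrays lay on both sides of it. The embryo difference was 1.05 ± 0.25 log2 (limma adjusted p = 0.0158), and it was no longer called without embryo replicate 3, at 0.76 (0.0178), or after quantile normalization, at 0.98. In adult the difference was 0.10 ± 0.25 (adjusted p = 0.797, 95% interval -0.48 to 0.68).

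The plakophilins, armadillo-repeat proteins that bind cadherins and Dsp, went different ways. Pkp1, the plakophilin of stratified epithelium, had mESC signals of 5.03, 5.02 and 4.97, embryo signals of 8.39, 8.73 and 9.89, and adult signals of 8.73, 9.86 and 9.52. The mESC arrays were at background and the dental groups covered the same range as each other. It was higher by 4.0 ± 0.41 log2 in embryo (limma adjusted p = 0.000266) and by 4.36 ± 0.41 in adult (9.87e-05).

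Pkp2, the plakophilin of simple epithelium and heart, had mESC signals of 9.71, 10.04 and 10.14, embryo signals of 6.78, 7.22 and 6.96, and adult signals of 4.85, 5.29 and 5.30. Every mESC array was above every embryo array and every embryo array above every adult array, with adult at the negative-control medians or just above them and embryo within the spread of the negative controls. It was lower by 2.98 ± 0.17 log2 in embryo, a difference of -2.98 (limma adjusted p = 1.47e-05), and by 4.82 ± 0.17 in adult, a difference of -4.82 (8.47e-07).

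Pkp3, the plakophilin found in most epithelial desmosomes, had mESC signals of 5.90, 6.03 and 6.11, embryo signals of 6.55, 6.69 and 6.67, and adult signals of 6.59, 6.69 and 6.67. All 9 values lay within the spread of the negative controls. Both dental groups were above mESC on every array, by small amounts. The differences of 0.62 ± 0.07 log2 in embryo (limma adjusted p = 0.000524) and 0.64 ± 0.07 in adult (0.000283) passed the p threshold and stayed under the minimum of 1.

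Perp, a tetraspan protein that stratified epithelia need for desmosome assembly and a target of p53 and p63, had mESC signals of 7.16, 7.19 and 7.67, embryo signals of 10.35, 10.52 and 10.95, and adult signals of 12.39, 12.42 and 12.48. The groups stood apart in 3 steps. Perp was higher by 3.27 ± 0.18 log2 in embryo (limma adjusted p = 1.13e-05) and by 5.09 ± 0.18 in adult (7.88e-07).

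**Figure D2:**
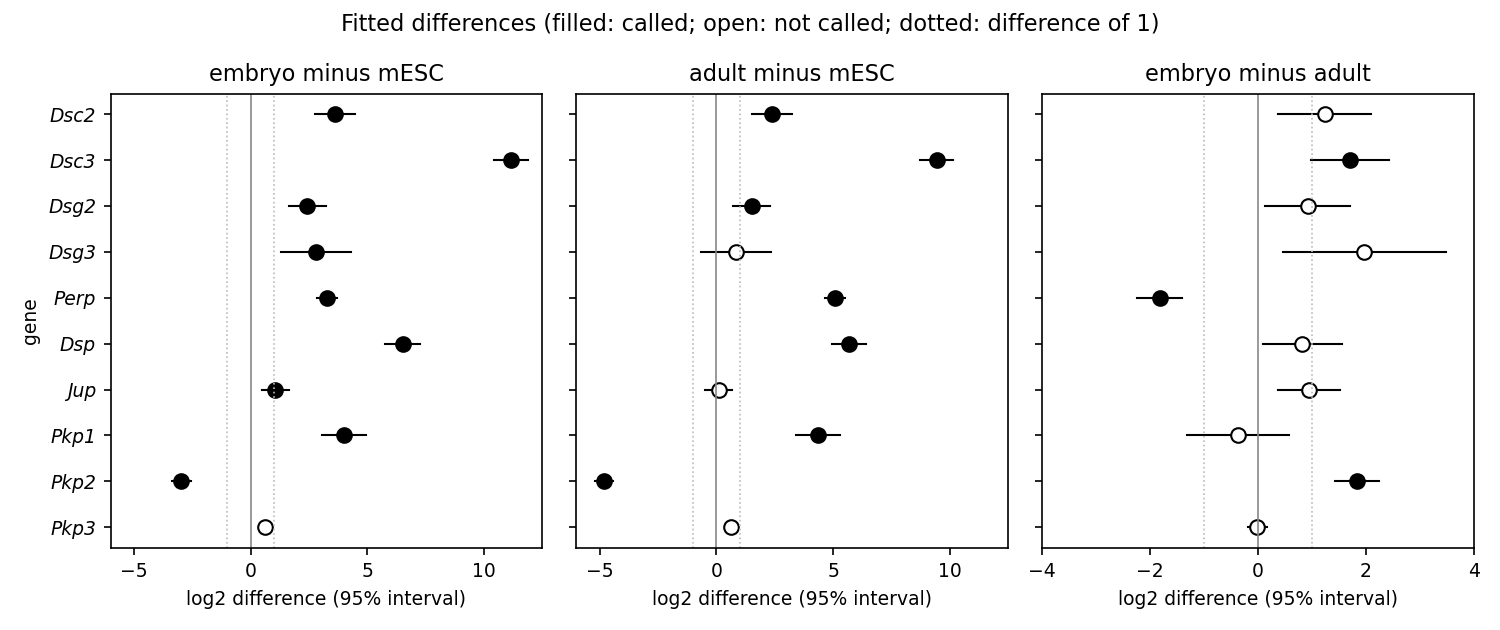
Log2 difference of each desmosome gene in the 3 comparisons, with points for the difference and lines for the 95% interval of the limma fit (3 arrays against 3). Filled points are called, the horizontal axis of embryo minus adult has its own range, and Pkp2 is the only filled point below 0 against mESC while Perp is the only one below 0 in embryo minus adult.

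The second comparison asks how dental Sox2+ cells differ between the forming tooth and the adult niche. Dsc3 and Pkp2 were called higher in embryo (2 of 10, with 3.61% of clusters called higher) and Perp lower in embryo (1 of 10, 2.86% of clusters). The median difference of the 10 genes was 0.94 log2, against 0.01 over all clusters. The groups did not overlap for 7 of the 10 (27.8% of clusters), while Dsp, Pkp1 and Pkp3 overlapped. With the mESC results, Dsc3, Perp and Pkp2 were the members called in all 3 comparisons, in the orders embryo over adult over mESC, adult over embryo over mESC, and mESC over embryo over adult.

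Dsc3 was higher in embryo by 1.70 ± 0.31 log2 (limma adjusted p = 0.00795), that is 3.26-fold. Pkp2 was higher by 1.84 ± 0.17 (0.000453), a size limited by an adult signal at the level of the negative-control medians. Perp was lower by 1.82 ± 0.18, a difference of -1.82 (0.00054), and adult over embryo was 3.54-fold. These calls held when any 1 array was left out, with differences of 1.39 to 1.91, 1.69 to 1.94 and -2.0 to -1.7.

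The other members were not called between embryo and adult. Dsc2 differed by 1.24 ± 0.37 log2 (limma adjusted p = 0.0623, 95% interval 0.38 to 2.10), and it was called without embryo replicate 1 (1.54, adjusted p = 0.0344) and without adult replicate 3 (1.5, 0.0457). With the replicate number as a block it was also called (adjusted p = 0.0314). Dsg2 differed by 0.93 ± 0.34 (adjusted p = 0.119). Dsg3 differed by 1.97 ± 0.65 (0.0888), and by 1.07 without embryo replicate 3, where it was called (0.00133). All 4 cadherins among the members thus had a higher mean in embryo, with no overlap of the arrays (27.8% of clusters). Of these, 1 was called higher (3.61% of clusters). The cadherins outside the members did not share this order. Dsg1a, Dsg1b and Dsg1c had lower means in embryo (-1.99, -1.94 and -1.16 log2, not called), and Dsc1 and Dsg4 lay under the negative-control medians.

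In the plaque, Dsp differed by 0.82 ± 0.32 log2 (limma adjusted p = 0.14) and was called without adult replicate 2 (1.13, 0.0365). Jup differed by 0.95 ± 0.25 (0.037), just under the minimum of 1, and was called without embryo replicate 1 (1.19, 0.0143). Pkp1 differed by -0.37 ± 0.41 (0.679, 95% interval -1.32 to 0.58). Pkp3 differed by -0.01 ± 0.07 (0.954), with a 95% interval of -0.18 to 0.16, so a difference of more than 0.18 log2 lies outside that interval. Without embryo replicate 1 the count of members called rose from 3 to 5.

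A digit string in the names of the deposited columns was read as the day of processing, though no label says what it is. On that reading there were 2 days. The first held 2 adult arrays and 1 embryo array, and the second 1 adult, 2 embryo and all 3 mESC arrays. Embryo minus adult within the first and the second day was 1.72 and 1.54 log2 for Dsc3, -1.89 and -1.83 for Perp, and 2.15 and 1.57 for Pkp2. The other member cadherins were also higher in embryo within each day, at 1.42 and 0.76 for Dsc2, 1.26 and 0.48 for Dsg2, and 1.16 and 2.26 for Dsg3. With fewer arrays, the second day alone called Pkp2 and no other member, and the first day alone, added after seeing the data, called no cluster at all. For mESC no array of the first day exists to set beside the dental arrays of that day.

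The arrays are of bulk RNA, in which fewer cells of a type and less RNA per cell cannot be told apart. Adult samples carried more RNA of other cell types than embryo samples. Of 12 macrophage and leukocyte markers 11 were called higher in adult. The log2 of their summed linear signals was 13.97 to 14.18 in adult and 8.93 to 10.39 in embryo. The brightest markers weigh most in this measure, which is given in brackets for the next lists and compared only within a list. Of 7 ameloblast markers 4 were called higher in adult (20.62 to 20.90 against 8.87 to 9.97), and of 9 mesenchyme markers 5 (14.36 to 16.84 against 11.00 to 13.03), with 2.86% of all clusters called higher in adult. The mesenchyme count fell to 3 (Col1a1, Col1a2 and Lum) without adult replicate 2, embryo replicate 2 or 3, or any 1 mESC array. The part of these cells in the differences between embryo and adult was not tested.

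The replicates also moved together across the junction. Adult replicate 1 had the lowest adult signal for 10 of 10 members, as it did for 33.4% of all clusters and 45.7% of the 18562 clusters with a mean above the negative controls. Its median shift from the mean of the other adult arrays was -0.69 log2. On the same array the 9 dental epithelium markers were all the lowest of the adult arrays (median shift -0.82), and the 9 mesenchyme markers (1.97), the 7 osteoblast and odontoblast markers (1.83) and the 7 ameloblast markers (1.62) were all the highest.

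Among the embryo arrays, replicate 3 was the highest for 8 of 10 members (20.8% of all clusters) and replicate 1 the lowest or tied for lowest for 10 of 10 (34.3%). Among clusters with a mean above the negative controls these shares were 29.7% and 46.0%. The median shift of embryo replicate 3 from the other embryo arrays was 0.59 log2 for the members, 0.67 for dental epithelium markers and -1.13 for mesenchyme markers. The part of these shifts in the differences of the members was not tested. Leaving out adult replicate 1 left the count of members called between embryo and adult at 3. Since it was the lowest adult array for 10 of 10 members, each embryo minus adult difference moved down without it. For example, Dsc3 went from 1.70 to 1.39 log2, Dsg2 from 0.93 to 0.50 and Dsp from 0.82 to 0.46. Differences below 0, as for Perp, thus grew in size.

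**Figure D3:**
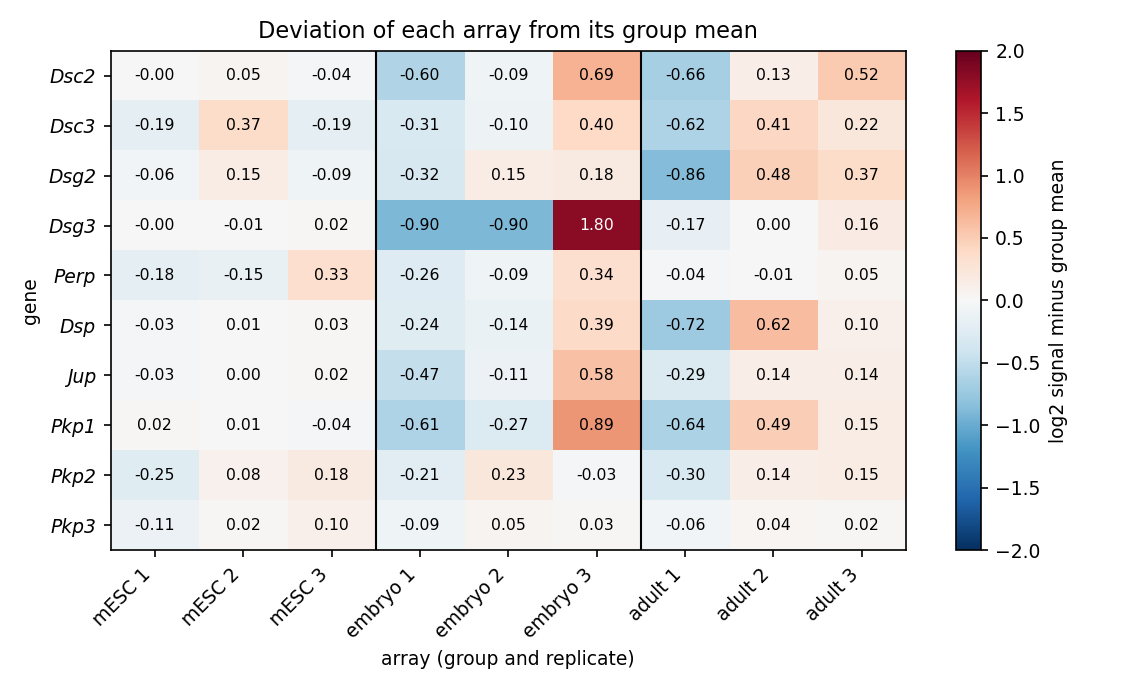
Deviation of each array from its own group mean, in log2 signal, for the 10 desmosome genes. Rows are genes, columns are arrays, and the number in each cell is the value that its colour shows. The column of adult replicate 1 is below 0 for every gene (-0.86 to -0.04), and the largest single value, 1.80, is Dsg3 in embryo replicate 3.

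The desmosomal cadherins lie side by side on chromosome 18, and the 9 measured genes span 644 kb, with the desmocollins on the minus strand and the desmogleins on the plus strand. In the authors' coordinates, which name no build, Dsc3 runs from 19960930 to 20002097, Dsc2 from 20030633 to 20059554, Dsg3 from 20510275 to 20541310 and Dsg2 from 20558074 to 20604526. The plaque genes are spread over chromosomes 13 (Dsp, 38151294 to 38198577), 11 (Jup, 100368856 to 100397790), 1 (Pkp1, 135871395 to 135919207), 16 (Pkp2, 16213318 to 16272712) and 7 (Pkp3, 141078218 to 141090510). Perp is on chromosome 10, from 18845071 to 18857078. All 10 clusters overlapped the gene of the same symbol in the RefSeq table of GRCm38.p6.

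Between the members at the ends of the cadherin cluster lie genes with other profiles. Dsc1 and Dsg4, cadherins of cornifying epidermis and hair, stayed at group means of 3.78 to 3.96, under the range of the negative-control medians, in all 3 groups. Dsg1a, a desmoglein of upper epidermal layers, had mESC signals of 4.74, 5.02 and 4.72, embryo signals of 6.52, 6.67 and 8.01, and adult signals of 7.45, 9.69 and 10.04. Its means were thus highest in adult, where those of the 4 member cadherins were highest in embryo, and embryo replicate 3 overlapped the adult range. Dsg1b and Dsg1c had the same order of means, 4.98, 6.87 and 8.81 and 4.69, 6.16 and 7.32. The Dsg1 genes are near-identical copies, and probes may not tell them apart, so they are not separate evidence.

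Embryo minus adult was -1.99 log2 for Dsg1a, -1.94 for Dsg1b and -1.16 for Dsg1c, and none was called (limma adjusted p = 0.0986, 0.0708 and 0.0982). All 3 were called without adult replicate 1, and Dsg1c also without embryo replicate 3. Against mESC the adult differences of 4.23, 3.83 and 2.63 were called in each fit that left out 1 array. In embryo Dsg1a (2.24) and Dsg1c (1.47) were called, and neither was called without embryo replicate 3 or without any 1 of the mESC arrays. Dsg1a also lost the call without embryo replicate 1 or 2 or adult replicate 2. Whether the cadherins differ from one another in how embryo and adult compare was not tested.

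**Figure D4:**
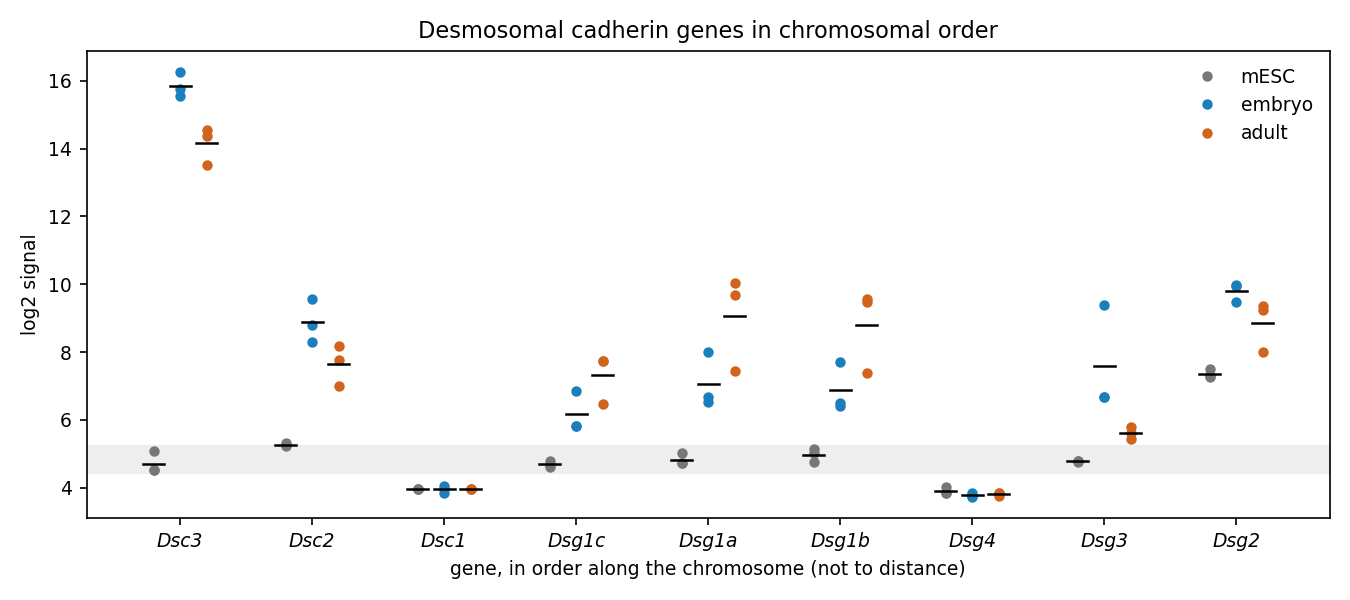
Log2 signal of the 9 measured desmosomal cadherin genes in their order on chromosome 18, with 1 point per array in each group. The grey band is the range of the arrays' negative-control medians (4.45 to 5.24). The outer genes Dsc3, Dsc2, Dsg3 and Dsg2 have their highest means in embryo, the Dsg1 genes in adult, and Dsc1 and Dsg4 lie under the band.

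Other genes of the junction were counted from lists of known function, to be read beside the 5.01% of all clusters called higher and 6.11% lower in embryo against mESC and the 7.01% and 10.3% in adult. Of 6 other desmosomal cadherins and plakophilins, 2 were called higher in embryo than in mESC (list median 1.14 log2) and 3 in adult (1.69). All of these calls were of Dsg1 genes, near-identical copies that are not separate evidence. Between embryo and adult limma called 0 of the 6, of which 3, again the Dsg1 genes, had an unadjusted p under 0.05. Of 9 measured plakins and plaque partners, Ppl (periplakin, 1.51) and Pof1b (an actin-binding protein of epithelial junctions, 2.14) were called higher in embryo than in mESC. In adult, Pof1b (3.58) and Ppl (1.40) were called higher and Pnn (-1.12), a nuclear splicing protein first described at desmosomes, lower. None of the 9 was called by limma between embryo and adult, and 3 had an unadjusted p under 0.05. Leaving out single arrays moved the count for embryo against mESC to between 0 and 2, with Pof1b lost without adult replicate 2 and without any 1 of the embryo or mESC arrays. Ppl was lost without mESC replicate 1 or 2. In adult against mESC, Ppl was lost without adult replicate 2 or 3 or mESC replicate 1 or 2, and Pnn without adult replicate 3 or mESC replicate 1.

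Of the 8 keratins that desmosomes of simple and basal epithelium anchor, 5 were called higher in embryo than in mESC (5.01% of clusters) and 5 in adult (7.01%), with list medians of 2.77 and 3.66 log2. Krt5, the partner of Krt14 in basal cells, had mESC signals of 5.44, 5.79 and 5.70, embryo signals of 15.49, 15.33 and 16.50, and adult signals of 15.69, 16.73 and 16.54. The dental groups overlapped each other far above mESC, and the differences were 10.13 ± 0.36 in embryo (limma adjusted p = 1.07e-06) and 10.68 ± 0.36 in adult (6.21e-07). Between embryo and adult, Krt18 (2.23), a keratin of simple epithelium, and Krt17 (1.21) were called higher in embryo (3.61% of clusters) and Krt15 (-3.28), a keratin of basal stem cells, lower (2.86%). Krt15 lost that call without adult replicate 2 or 3 or embryo replicate 2, Krt17 without adult replicate 1 or embryo replicate 3, and Krt18 without embryo replicate 2 or 3. Against mESC, Krt15 lost its embryo call without embryo replicate 1 or 3 or any 1 mESC array. Krt8 lost its adult call without adult replicate 2 or 3, embryo replicate 2, or mESC replicate 1 or 2. Without adult replicate 1, Krt18 was also called higher in adult than in mESC.

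Of 5 measured hemidesmosome genes, which anchor epithelium to its basement membrane, 4 were called higher in embryo than in mESC (5.01% of clusters) and 2 in adult (7.01%). Itgb4 (-1.11 log2), the integrin of the hemidesmosome, and Col17a1 (-1.24), its transmembrane collagen, were called lower in embryo than in adult (2.86% of clusters), also in each fit that left out 1 array. The adult count against mESC rose to 4 without adult replicate 1. The embryo count against mESC fell to 3, with Cd151 lost, without adult replicate 2, embryo replicate 2 or 3, or any 1 mESC array.

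Of 8 measured adherens junction genes, 3 were called higher and 2 lower in embryo than in mESC (5.01% and 6.11% of clusters), and 4 higher and 2 lower in adult (7.01% and 10.3%). Cdh3 (P-cadherin) was higher in both, by 2.95 and 2.89 log2. Without embryo replicate 1, 0 were called lower in embryo than in mESC, and Cdh1 also lost that call without embryo replicate 2 or mESC replicate 2 or 3. Cdh1 (E-cadherin) averaged 15.04 in mESC, 13.88 in embryo and 14.97 in adult, so the classical epithelial cadherin was well above background in mESC, where Dsc3, Dsg3 and Pkp1 were not. Between embryo and adult, Cdh2 (-3.62), the cadherin of mesenchyme and nerve, and Cdh1 (-1.10) were called lower in embryo (2.86% of clusters). Cdh1 lost the call without adult replicate 2 or 3, embryo replicate 1 or 2, or any 1 mESC array, and Cdh2 without embryo replicate 2 or 3. Cdh2 also had its highest adult signal, 12.92, on adult replicate 1, where the mesenchyme markers were highest.

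Of 14 measured regulators of epithelial junction genes, 6 were called higher and 1 lower in embryo than in mESC (5.01% and 6.11% of clusters), and 3 higher and 1 lower in adult (7.01% and 10.3%). Trp63, the p53-family factor that stratified epithelium depends on and a known activator of Perp, had a difference of 5.96 log2 in embryo and 5.92 in adult. Snai2, a repressor of E-cadherin, was higher by 4.55 and 4.18. Between embryo and adult, Grhl3 (1.40), Grhl2 (1.24) and Esrp1 (1.12), the first pair being grainyhead-like activators of junction genes and the last an epithelial splicing factor, were called higher in embryo (3.61% of clusters) and Klf4 (-2.21) lower (2.86%). Without adult replicate 1, only Grhl3 of these was called higher, Esrp1 also lost its call without embryo replicate 2 or 3, and without adult replicate 3 the number called lower was 3.

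Of 10 genes for enzymes and membrane proteins known to act on desmosomal proteins, 4 were called higher in embryo than in mESC (5.01% of clusters) and 6 in adult (7.01%). They include Adam10 (2.97 and 3.60 log2), a protease that sheds cadherins, and Prkca (2.35 and 2.21), a kinase whose activity loosens desmosomes. None of the 10 was called by limma between embryo and adult, where 5 had an unadjusted p under 0.05, and Adam9 was called lower in embryo without adult replicate 3 or embryo replicate 3. The adult count against mESC fell to 5, with Adam9 lost, without adult replicate 1 or 2 or mESC replicate 1 or 2.

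The genes most like Dsp and Perp were found by the root mean square distance of profiles over the 9 arrays, each centred on its own mean. The search and its ranks covered 19170 clusters with 1 symbol, leaving out predicted (Gm), Riken, microRNA and olfactory receptor names. This is a description of these arrays. For Dsp they were Nsg1 (0.31 log2), Trp63 (0.35), Bcl11a (0.38), Tgfb2 (0.41) and Moxd1 (0.42). For Perp they were Serpinb5 (0.26), Mbnl1 (0.26), Tmem176a (0.29), Cyp26a1 (0.30) and Efnb1 (0.33). Of the other members Pkp1 was nearest to Dsp (1.05, rank 61) and to Perp (0.70, rank 66), and Pkp2 was farthest from both (4.74 and 4.10).

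In the authors' deposited tables, which rest on an analysis of variance with its own adjusted p, 7 members passed an adjusted p of 0.05 and a linear fold of 2 for embryo against mESC, 6 for adult against mESC and 2 (Perp and Pkp2) for embryo against adult. For Dsc3 the authors' deposited table gives a fold of 2.57 for embryo against adult with an adjusted p of 0.16034.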

How the data were processed

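Per the labels, total RNA of 9 samples was measured on whole-transcript mouse arrays made by Affymetrix. For each transcript cluster and array the authors deposited a log2 signal. RMA, Affymetrix Expression Console and Transcriptome Analysis Console are named, with no version, per the submitters' processing notes, and the deposited tables name the variant SST-RMA. RMA normalizes arrays against each other, which can hide a shift common to the majority of genes and shrinks differences between dim signals. The deposited values do not share 1 distribution, with array medians of 4.26 to 4.38. The deposited tables hold no detection calls. The authors also deposited, per the file headers, a signed linear fold (a score that is negative where the first group is lower), a p-value and an adjusted p for each comparison.

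Of 65956 clusters, 36559 carry exactly 1 symbol and were tested. Groups and replicate numbers came from the sample titles. Differences were fitted by limma (version 3.58.1, R 4.3.3; lmFit, then eBayes with no trend; 3 group means, 9 arrays, 6 residual degrees of freedom) and adjusted by Benjamini-Hochberg in each comparison. The fit was tested on simulated data. Values written ± SE are standard errors of the moderated fit, and 3 arrays per group limit the precision. No filter on signal was used. The members, lists and tests were chosen with earlier results of these data known, so counts are set beside the share of all clusters called. Named genes are the 10 members, up to 4 called genes per list by size of difference and all called genes of a list with 5 or fewer, and the 5 genes most like Dsp and Perp. Those described were picked from these after their values were seen, and so were Dsc1, Dsg4 and Adam9, which fall outside the rule.

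A second deposited summary holds the same values (9 of 9 columns identical). Its column names show a group and a digit string, taken as the day of processing, without naming the sample, so day was used only through those columns. In it 2 embryo columns share a name. The titles list 3 biological replicates, so both were kept, and they were averaged as an alternative. Replicate numbers were checked for pairing: deviations from the group mean correlated at -0.089 to 0.159 across genes between samples of the same number and -0.131 to 0.122 between others, so the numbers were not taken to pair samples. Alternatives were single arrays left out, the replicate block, only the arrays compared, quantile normalization, median centring, brighter clusters only, a variance trend, array weights, other sets of clusters, processing day, and the deposited tests. Other software was pandas 2.3.3 under Python 3.11.15, the R package data.table (version 1.17.8) and, for the plots, matplotlib 3.10.9.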

Additional observations from a re-analysis of the deposited data

How the results depend on the processing

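For embryo against adult 3 members were called as reported, and this count rose to 5 when only brighter clusters were tested (Dsc2 and Dsg3 added). It fell to 1 on the second processing day alone and 0 on the first, the latter chosen after seeing the data with 1 residual degree of freedom. Fewer arrays enter both. Leaving out single arrays gave 3 to 5, with 5 without embryo replicate 1. Against mESC the counts kept within 8 to 9 in embryo (9 as reported) and at 7 in adult (7 as reported) when single arrays were left out. Embryo against mESC gave 8 after quantile normalization, and 7 on the second day alone, where Dsg3 (3.26 log2, limma adjusted p = 0.0606) and Jup (1.11, 0.0869) lost their calls. With the replicate block the counts were 4 (Dsc2 added, 1.24, adjusted p = 0.0314), 9 and 7, and the block changed no other call of a member. Averaging the embryo columns of 1 name gave 4 for embryo against adult, with Jup added (1.10, 0.0354). Only Pkp3 changed sign between embryo and adult, within its error: it was -0.04 to 0.03 when single arrays were left out, and its reversed values were 0.05 on the first day, 0.02 after median centring, 0.01 without adult replicate 2 and 0.03 without embryo replicate 1. On single days Dsc3 (adjusted p = 0.476 and 0.125) and Perp (0.266 and 0.0624) lost their calls with nearly the same differences, and Pkp2 did on the first day (2.15, 0.301). Quantile normalization put 46.6% of all calls between embryo and adult higher in embryo, against 55.8% as reported. Averaging clusters of a gene was not run, since each member has 1 cluster. Signals near the negative controls limit the sizes for Dsc2, Dsc3, Dsg3 and Pkp1 in mESC and Pkp2 in adult, and other signals under the controls' 95th percentile (8.35 to 9.63 per array) lie within their spread.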
